A study of Rattus norvegicus with 9 samples.

Results

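This comparison took 6 of the 9 liver arrays of the study, those of CUMS 1, 2 and 3, the stressed rats whose symptom label is Major Depression, and those of control 1, 2 and 3, whose label is undepression. CUMS stands for chronic unpredicted mild stress. The 6 arrays were taken from these labels alone, so no measured value chose them. All 9 animals were male Goto-Kakizaki (GK) rats, a strain that becomes diabetic without treatment. They were bought at 5 weeks of age and spent 7 weeks in the animal house before the groups were formed, by which time diabetes had emerged. The stressed rats then lived alone in their cages for 8 weeks and met a changing daily stressor, such as restraint, hot or cold swimming, noise or an inverted light cycle, while the control rats were kept normally. Both groups received repaglinide, a glucose-lowering drug, by gavage and gave serial blood samples before the livers were taken. Stress and single housing therefore cannot be told apart in this comparison, and how a rat came to be labelled Major Depression is not given in the sources used here. Each array holds the liver of 1 rat, so the spread between arrays includes the spread between animals.

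The liver is mostly hepatocytes, which burn and make fat, synthesize cholesterol and bile acids, clear drugs and secrete most plasma proteins. Stellate cells, which store retinoids and make matrix, Kupffer cells, which are the resident macrophages, sinusoidal endothelium, bile duct cells and lymphocytes make up the rest. Stress hormones act on hepatocytes through the glucocorticoid receptor and through cyclic AMP. Immediate early genes, interferon response genes and metallothioneins are among the genes of liver known to change quickly with hormones, cytokines and feeding.

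A MAS 5.0 signal was available for 31042 probe sets besides the array's own controls. A probe set is a group of short probes to 1 transcript. The median signal of an array lay between 108 and 134, and no pair of arrays had the same signal in more than 0.003% of probe sets. Hepatocyte markers were among the brightest probe sets of every liver, with albumin (Alb) between 17128 and 26932 in the 6 rats. Across the 14 hepatocyte markers the median log2 fold change between the groups was −0.05. Control 3 stood apart: its median correlation with the other arrays was 0.919, against 0.928 to 0.932 for the rest, and it had the highest median signal. The 3′ to 5′ ratio of beta-actin, a measure of RNA quality, was 2.51 in control 3 and 5.23 in CUMS 2, and from 3.54 to 3.73 in the other rats compared. Values without control 3, and in places without CUMS 2, are therefore given beside many list medians and some single genes. A gene given without such a value may still depend on control 3.

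No probe set was called in either direction at an adjusted p under 0.05 by limma (lowest adjusted p = 0.407), so 0% of probe sets were called higher and 0% lower. At an unadjusted p under 0.05, 802 probe sets (2.58%) were higher and 1068 (3.44%) lower in CUMS 1–3. All 3 stressed rats lay above all 3 controls in 1653 probe sets (5.33%) and below them in 1755 (5.65%). With a fold of at least 1.5 besides, 799 (2.57%) were higher and 959 (3.09%) lower. An exact permutation test of 3 rats against 3 cannot give a p below 0.1, so single genes are given here with their signals and with limma's estimate.

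Higher and lower probe sets were not equally frequent at every signal. Among the 12148 probe sets with a mean log2 signal under 6 over the 9 arrays, 595 were higher and 520 lower without overlap and at a fold of at least 1.5. Between 6 and 8 the counts were 165 higher and 291 lower of 7825, between 8 and 10 they were 20 higher and 115 lower of 6595, and above 10 they were 19 higher and 33 lower of 4474. By this rule lower probe sets outnumbered higher ones in each class above a log2 signal of 6. The median standard error of the log2 fold change went from 0.81 in the dimmest class to 0.13 in the brightest. Where the higher group had a mean log2 signal of at least 8, 50 of 11558 probe sets (0.433%) were higher and 205 (1.77%) lower. This filter reads only the brighter group, so a probe set can pass it through the group where it is high. The classes above rest instead on the mean of all 9 arrays. Without control 3, where fewer rats make overlap rarer, 104 were higher and 215 lower. Of the 50 higher and 205 lower probe sets themselves, 39 and 123 kept a fold of at least 1.5 without control 3. Quantile normalization gave 68 higher and 186 lower, and median centring 67 and 194. Of all probe sets at an unadjusted p under 0.05, 42.9% were higher, but 49.0% after quantile normalization, 51.5% after median centring and 54.4% without control 3. By class, the balance at that threshold differed in direction, with 156 higher and 323 lower between 8 and 10 but 197 higher and 145 lower above 10. Over all probe sets the balance turned with the scaling and with control 3.

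**Figure D1:**
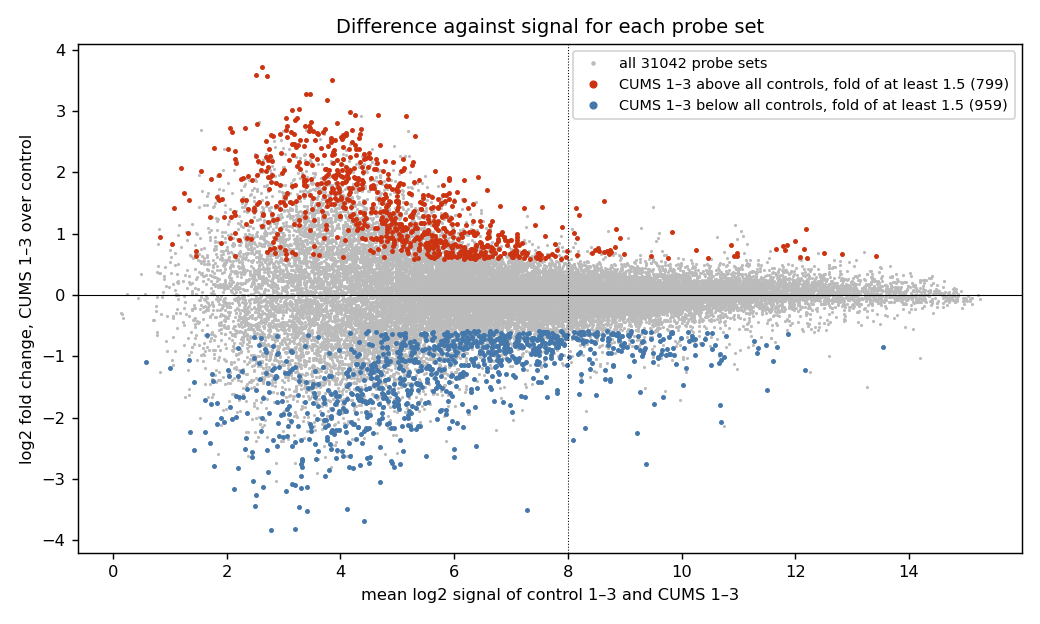
Log2 fold change of CUMS 1–3 over control (vertical axis) against the mean log2 signal of the 6 rats (horizontal axis), 1 point per probe set; coloured points are the 799 higher and 959 lower probe sets whose groups do not overlap and differ at least 1.5-fold. To the right of the dotted line at a log2 signal of 8, the lower points outnumber the higher ones.

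By the same rule of no overlap and a fold of 1.5, the bright probe sets held 35 higher and 162 lower genes. They came from the 0.433% of bright probe sets that were higher and the 1.77% that were lower. Genes that the study's own table and heat map name were then left out, as were unspecific probe sets and placeholder symbols. This left 16 higher and 148 lower genes. The study picked its genes as changed in this series, so leaving them out can alter the balance. The part of each exclusion in the change was not counted. Of the 16 higher genes 10 were in none of the lists described below, and of the 148 lower genes 119. The named genes are given here by function, which was not tested as a theme. Hacl1, the peroxisomal lyase that shortens branched and 2-hydroxy fatty acids (probe set 1371012_at), read 5218, 3206 and 2592 in control 1, 2 and 3 and 5864, 5870 and 5931 in CUMS 1, 2 and 3. The stressed rats lay close together and control 1 lay nearest to them. This gave a log2 difference of 0.75 ± 0.22 (SE; limma, adjusted p = 0.755), and 0.53 without control 3. Ech1, an isomerase needed for the oxidation of unsaturated fatty acids (1386885_at), read 4321, 2548 and 3888 in the controls and 4344, 5890 and 5999 in CUMS 1–3, where CUMS 1 was barely above control 1. The log2 difference was 0.61 ± 0.20 (SE; limma, adjusted p = 0.800). Creb3l3, a membrane-bound transcription factor of the fasted liver that acts with PPAR-alpha (1391483_at), read 4753, 3079 and 3865 in the controls against 5113, 6193 and 6209 in CUMS 1–3. Its log2 fold change of 0.60 ± 0.18 (SE) was also 0.60 without control 3. Fmo5, a flavin monooxygenase (1383248_at), read 3303, 3073 and 2102 against 3380, 5950 and 5772, with CUMS 2 and 3 well above the rest and CUMS 1 near control 1.

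The other higher genes had lower signals. Cxcr5, the chemokine receptor that brings B cells into follicles (1386557_at), read 166, 237 and 168 in the controls and 363, 522 and 531 in CUMS 1–3, a log2 fold change of 1.31 ± 0.23 (SE; limma, adjusted p = 0.407). Another Cxcr5 probe set stood at −0.16, so the gene's probe sets disagreed. Pheta1, an endosomal adaptor (1385507_at), read 171, 195 and 128 against 294, 406 and 355, while its other probe sets stood at −0.15 and 0.13. Shld2, a subunit of the shieldin complex of DNA repair (1383233_at), read 1159, 1045 and 711 against 1496, 1485 and 1770, and its other probe set was also higher, at 0.49. Tbx3, a transcription factor of hepatocytes near the central vein (1393160_at), read 276, 332 and 329 against 380, 468 and 731. Dact2, Phf20l1, Arhgap5 and Sltm completed the 12, with log2 fold changes of 0.92, 0.68, 0.64 and 0.79. Of 14 further probe sets for 6 of these 12 genes, 10 had the same direction.

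The first 12 of the lower genes included Pdgfra, Gja1, Prss23 and Sparcl1. Pdgfra, the platelet-derived growth factor receptor of stellate cells and portal fibroblasts (1370941_at), read 716, 904 and 1083 in control 1, 2 and 3 and 433, 488 and 471 in CUMS 1, 2 and 3. Its log2 fold change was −0.94 ± 0.16 (SE; limma, adjusted p = 0.407), and −0.80 without control 3. Gja1, which encodes the gap junction protein connexin 43 (1372002_at), read 1590, 1500 and 2188 against 873, 1110 and 1030, and both of its other probe sets were lower, at −0.36 and −0.46. Prss23, a secreted serine protease (1373152_at), read 1102, 1003 and 1426 against 616, 639 and 642. Sparcl1, a matrix protein related to SPARC (1386865_at), read 904, 811 and 1016 against 581, 538 and 543. Control 3 had the highest signal in all 4 genes, but in each the stressed rats also lay below control 1 and 2. In bulk liver, fewer cells of a type and less RNA per cell cannot be told apart.

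The other named lower genes followed the same rule. Fgfr2, a fibroblast growth factor receptor (1373829_at), read 1368, 1339 and 1649 against 927, 903 and 766, a log2 fold change of −0.75 ± 0.13 (SE; limma, adjusted p = 0.407). Its 4 other probe sets disagreed, at −0.79, 1.69, 0.11 and −0.61. Neurl3, an E3 ubiquitin ligase (1383906_at), read 510, 622 and 528 against 321, 316 and 305, and its log2 fold change of −0.81 was −0.84 without control 3. Lgals3bp, a secreted glycoprotein that binds galectins (1387946_at), read 1279, 1112 and 1189 against 605, 503 and 716, and its value of −0.99 was the same without control 3. For both genes the 3 controls lay close together and well above the stressed rats. Irf8, the transcription factor of macrophages and dendritic cells (1372097_at), read 663, 608 and 936 against 455, 426 and 407. Sp110, a nuclear body protein induced by interferon (1372930_at), read 1593, 1348 and 1197 against 870, 802 and 1046, and its other probe sets stood at −0.41 and −0.38. Dbnl, an actin-binding adaptor (1368274_at), read 716, 460 and 651 against 235, 336 and 382, and Aldh1a3, which makes retinoic acid (1383469_at), 718, 833 and 885 against 564, 509 and 524. Ier3 is described with the immediate early genes below.

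**Figure D2:**
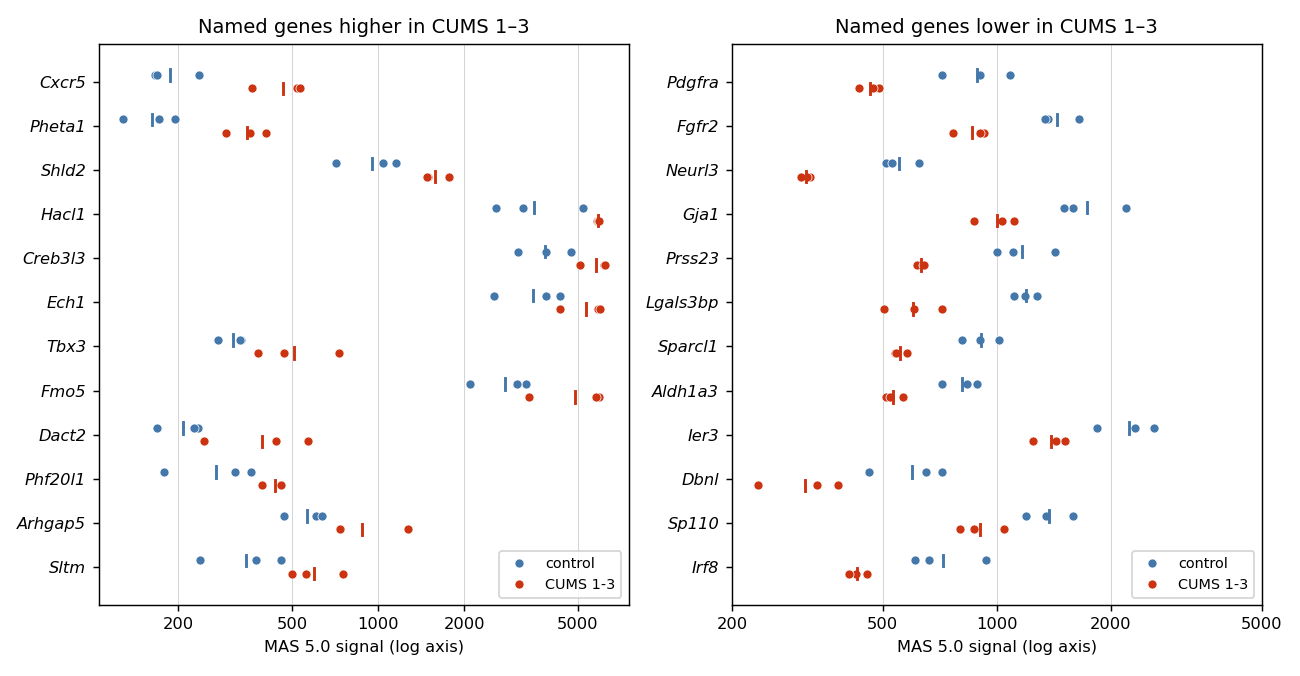
MAS 5.0 signal (log axis) of the 12 higher and 12 lower genes named by rule, with 1 point per rat for control 1–3 and CUMS 1–3 and a bar at the geometric mean of each group. The groups do not overlap, because that was part of the rule; for Ech1 and Fmo5 the lowest stressed rat nearly touches the highest control.

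The rats labelled Mild Depression, CUMS 4, 5 and 6, share their control rats with this comparison, so only their levels are set beside it. Ier3 read 2004, 1546 and 1871 in them, between the CUMS 1–3 and control means of 1398 and 2249. Mttp, described below, read 6819, 6916 and 7723, also between the means of 8505 and 5802. Cxcr5 read 373, 237 and 278, and Neurl3 254, 260 and 278, the latter below all of CUMS 1–3. Hacl1 had a mean of 6285 in CUMS 4–6, above the 5888 of CUMS 1–3. Dact2 had a mean of 213 there, near the control mean of 210. These genes are examples, and the named genes did not share 1 order of the groups.

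Lists of genes, 34 in number and with 925 genes in all, were described by their counts and medians, using for each gene its brightest probe set. The lists were chosen with earlier results of these data known. A list that was lower or higher therefore describes these rats and tests nothing. As background, of 14205 genes 6648 had a higher and 7557 a lower mean in CUMS 1–3, and at an unadjusted p under 0.05 340 genes (2.39%) were higher and 656 (4.62%) lower. The groups did not overlap in 677 higher (4.77%) and 982 lower genes (6.91%). The median log2 fold change over all genes was −0.02. No list member passed an adjusted p under 0.05, and the lowest, 0.407, was that of Cxcr5, Mttp and Pdgfra.

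**Figure D3:**
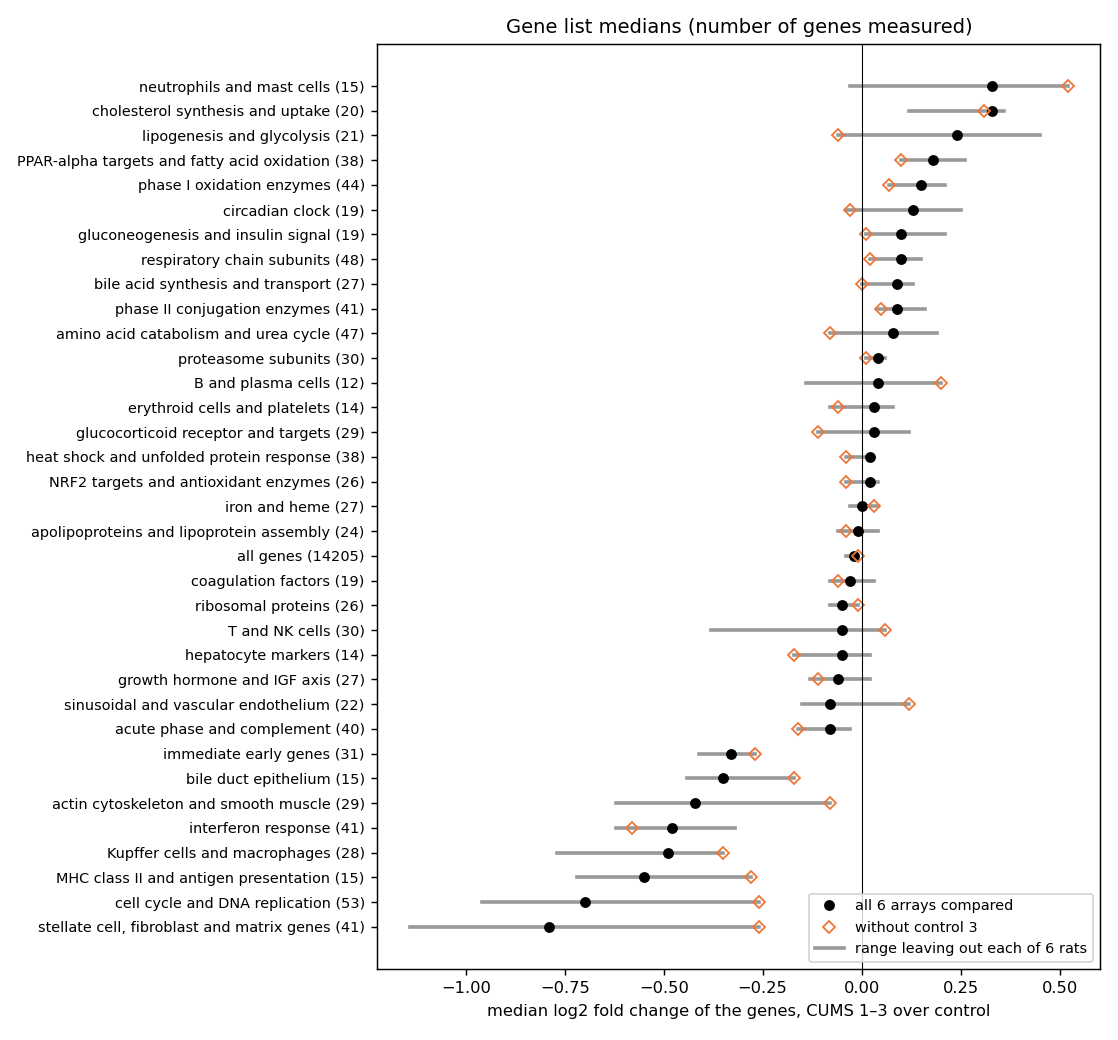
Median log2 fold change of CUMS 1–3 over control for each list of genes (number measured in parentheses), with all 6 rats (filled circle), without control 3 (open diamond) and the range when each of the 6 rats is left out in turn (grey bar). Immediate early and interferon response genes stay at or below −0.27 throughout. MHC class II genes also stay below −0.27, though their median moves toward 0 without control 3. The stellate, cell cycle and actin lists move toward 0 without control 3 as well.

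Immediate early genes, which cells switch on within minutes of a stimulus, were lower as a group in the stressed livers. Of 31 measured, 27 had a lower and 4 a higher mean, with a median log2 fold change of −0.33. At an unadjusted p under 0.05, 4 were lower and 0 higher, against 4.62% and 2.39% of all genes. The median stayed between −0.41 and −0.27 when each rat was left out, and was −0.27 without control 3. Relative to the control mean of each gene, the median of the list was −0.26, 0.00 and 0.36 in control 1, 2 and 3 and −0.28, −0.31 and −0.39 in CUMS 1, 2 and 3. The stressed rats thus lay together, only just below control 1, and the controls were spread widely.

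Ier3, a regulator of cell survival (1388587_at), read 2598, 1835 and 2315 in the controls and 1433, 1244 and 1515 in CUMS 1–3, without overlap. Its log2 fold change was −0.68 ± 0.15 (SE; limma, adjusted p = 0.628). Junb, a subunit of the AP-1 transcription factor, read 315, 602 and 502 against 253, 211 and 285, a log2 fold change of −0.88 ± 0.35 (SE). Gadd45b, a stress sensor that binds MAP kinase kinases, read 183, 324 and 353 against 80.9, 98.2 and 246, so that CUMS 3 overlapped the controls. Egr1, an early zinc finger factor, read 546 in control 1 but 1612 and 2079 in control 2 and 3, against 677, 704 and 793 in CUMS 1–3. Fos read 93.6, 50.8 and 163 against 54.7, 52 and 66.4, and Myc 211, 212 and 665 against 196, 168 and 218, where only control 3 stood out. Dusp5 and Ccn1 went the other way, with log2 fold changes of 0.36 and 0.26, and neither had an unadjusted p under 0.05.

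Interferon response genes were also lower, and here control 3 was the lowest of the controls. Of 41 measured, 37 had a lower and 4 a higher mean in CUMS 1–3, the median was −0.48 (log2), and without control 3 all 41 were lower, with a median of −0.58. At an unadjusted p under 0.05, 14 were lower, against 4.62% of all genes. In 10 the stressed rats lay below all controls, against 6.91% of all genes. The median lay between −0.62 and −0.32 when each rat was left out, with −0.32 without CUMS 2. Per rat, the median relative to the control mean was 0.31, 0.04 and −0.27 in control 1, 2 and 3 and −0.49, −0.76 and −0.21 in CUMS 1, 2 and 3. CUMS 3 thus lay slightly above control 3, and CUMS 2, the rat with the highest 3′ to 5′ ratios, lay lowest. The part of RNA quality in this was not tested.

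Gbp2, a GTPase that attacks vacuoles of intracellular pathogens (1368332_at), read 2478, 999 and 993 in the controls and 506, 204 and 590 in CUMS 1–3, a log2 fold change of −1.78 ± 0.44 (SE; limma, adjusted p = 0.628). The members of this list that act in antigen processing had log2 fold changes from −0.86 to −0.07. Psmb9, a catalytic subunit of the immunoproteasome, read 4450, 3302 and 2950 against 1876, 1417 and 2712, a log2 fold change of −0.86 ± 0.24 (SE). Psmb8, its partner subunit, read 4869, 4523 and 3844 against 3374, 2727 and 3787, so the lowest control and the highest stressed rat nearly met. Tap1, a subunit of the peptide transporter that feeds MHC class I, read 1028, 576 and 537 against 415, 374 and 504, a log2 fold change of −0.67. Psmb10, a further immunoproteasome subunit, stood at −0.42 and Tapbp, which joins class I molecules to the transporter, at −0.33. Tap2, the partner of Tap1, stood at −0.13 and B2m, the light chain of class I molecules, at −0.07. The 30 subunits of the proteasome list had a median of 0.04.

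Several classical targets of type I interferon spread widely among the controls. Usp18, which removes ISG15 from proteins, read 2253, 1422 and 429 in the controls against 541, 215 and 508 in CUMS 1–3. Irf7, the factor that amplifies the response, read 2903, 2162 and 730 against 930, 404 and 907, and Mx1 811, 695 and 313 against 264, 120 and 405. In each of these genes control 3 lay among the stressed rats. Cxcl10, a chemokine for activated T cells, read 442, 138 and 223 against 139, 55.7 and 137, while Cxcl11 and Ifit2, at 0.03 and 0.02, did not share the direction. Markers of T and NK cells had a median of −0.05, with 17 of 30 lower and 13 higher.

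Interferon response genes are bound by STAT and IRF factors at tandem GAAA elements, so the RefSeq promoter windows (build GRCr8) were searched, after the values of the lists were known, for GAAA, any 2 bases and GAAA again, on both strands and in the 250 bases before each start. Of 33 genes of the list with a window, 21 (63.6%) held it, against 3.61% of all 27457 genes. Of the 21 genes with it 20 were lower, with a median of −0.42, and of the 12 without it 10 were lower, with a median of −0.50. The windows of 3 genes are shown as examples of where the element lies, with the match in capitals. Gbp2 lies at chr2:234005477-234005726 on the plus strand, Tap1 at chr20:4668544-4668793 on the minus strand and Ifi44, an interferon-induced cytoplasmic protein, at chr2:243303841-243304090 on the minus strand.
Gbp2: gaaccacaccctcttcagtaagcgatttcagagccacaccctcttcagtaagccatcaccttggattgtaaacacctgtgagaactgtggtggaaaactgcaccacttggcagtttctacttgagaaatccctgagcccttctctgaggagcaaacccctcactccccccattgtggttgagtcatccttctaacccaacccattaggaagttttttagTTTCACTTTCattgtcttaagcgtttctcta
Tap1: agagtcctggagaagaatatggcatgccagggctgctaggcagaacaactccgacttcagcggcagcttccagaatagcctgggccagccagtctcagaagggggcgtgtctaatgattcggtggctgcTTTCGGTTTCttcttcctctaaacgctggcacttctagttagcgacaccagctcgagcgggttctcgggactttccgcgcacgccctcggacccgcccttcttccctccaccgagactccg
Ifi44: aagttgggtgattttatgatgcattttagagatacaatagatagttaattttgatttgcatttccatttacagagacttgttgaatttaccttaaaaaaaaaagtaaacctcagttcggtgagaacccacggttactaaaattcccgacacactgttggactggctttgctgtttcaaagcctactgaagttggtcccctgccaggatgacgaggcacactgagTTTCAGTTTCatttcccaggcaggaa
The capitals are the reverse complement of the searched letters in all 3 windows. The match ends 22 bases before the start in Gbp2, 17 in Ifi44 and 112 in Tap1. Ifi44 read 1374, 968 and 900 in the controls and 646, 614 and 927 in CUMS 1–3, a log2 fold change of −0.57 ± 0.20 (SE).

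**Figure D4:**
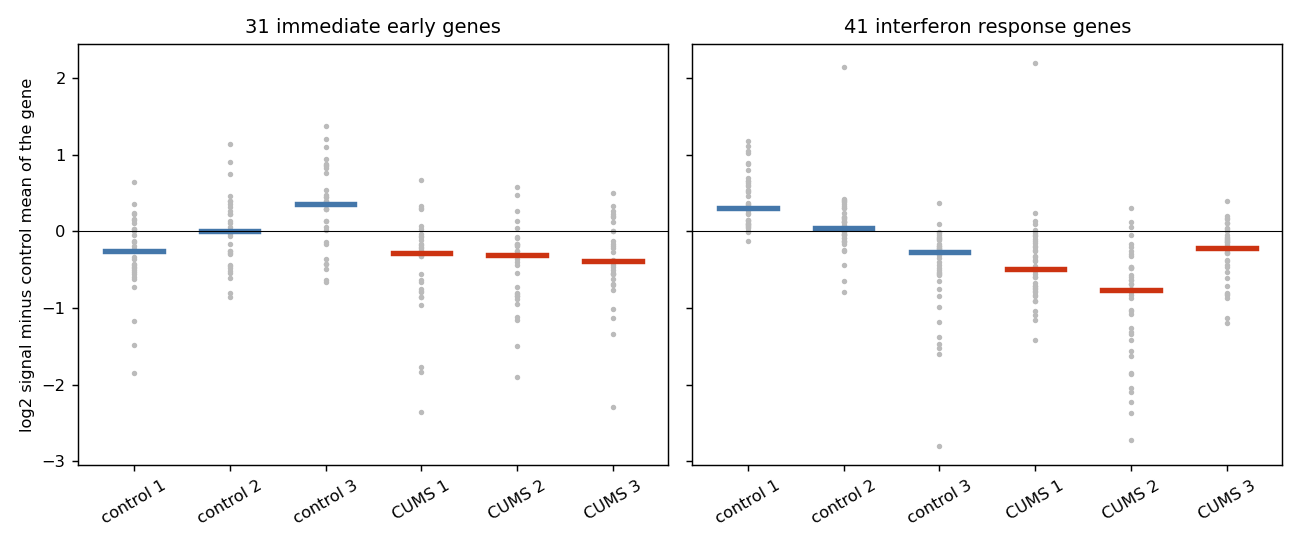
Log2 signal minus the control mean of the gene, for 31 immediate early and 41 interferon response genes in each of the 6 rats; grey points are genes and coloured bars the median over genes. For immediate early genes control 3 is the highest rat, at 0.36, and for interferon response genes it is the lowest control, at −0.27.

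Most Kupffer cell and MHC class II genes had lower means too, and their medians moved toward 0 without control 3. Of 28 Kupffer cell and macrophage genes, 26 were lower and the median was −0.49 (log2), or −0.35 without control 3. At an unadjusted p under 0.05, 11 were lower and 1 was higher, against 4.62% and 2.39% of all genes. Aif1, a calcium-binding protein of macrophages, read 2370, 1605 and 3108 in the controls and 1151, 880 and 1585 in CUMS 1–3, a log2 fold change of −0.96 ± 0.26 (SE; limma, adjusted p = 0.697). Adgre1, the surface receptor known as F4/80, read 940, 765 and 1920 against 478, 524 and 753, so CUMS 3 was just below control 2. Clec4f, a lectin found on Kupffer cells, read 6745, 6066 and 4304 against 5202, 4667 and 6207, and its log2 fold change was −0.07. Cd14, the lipopolysaccharide co-receptor that hepatocytes also express, read 5208, 5343 and 4534 in the controls and 6362, 5723 and 6408 in CUMS 1–3, the 1 member above all controls. Cd74, the invariant chain of class II molecules, read 3606, 3655 and 6425 against 2942, 1715 and 2891, and the 15 class II and antigen presentation genes had a median of −0.55 (14 lower), or −0.28 without control 3.

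Matrix and cell cycle genes had the lowest medians of the 34 lists, and these medians, like that of the actin genes, rested largely on control 3. Of 41 stellate cell, fibroblast and matrix genes 38 were lower and the median was −0.79 (log2), or −0.26 without control 3. Col1a2, a chain of type I collagen, read 610, 491 and 7317 in the controls and 315, 213 and 300 in CUMS 1–3. Fbln5, an elastic fibre protein, was less tied to that rat: it read 198, 230 and 252 against 135, 82.9 and 105, a log2 fold change of −1.10 ± 0.27 (SE), and −1.02 without control 3. Of 53 cell cycle and DNA replication genes 50 were lower, with a median of −0.70, but −0.26 without control 3. Mcm6, a subunit of the replicative helicase, read 284, 160 and 372 against 124, 89.5 and 146, and Mcm3, another of its subunits, 163, 174 and 350 against 99.5, 55.2 and 111. Both lay below all controls. Of 29 actin cytoskeleton genes 26 were lower, with a median of −0.42 that was −0.08 without control 3. Ezr, which links actin to the membrane, read 442, 417 and 379 against 264, 220 and 325, with control 3 the lowest control. Of 15 bile duct genes 13 were lower, with a median of −0.35 that was −0.17 without control 3. Endothelial genes stood at −0.08, and at 0.12 without control 3. In these lists control 3 moved with the result, and what set that liver apart was not tested.

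The TTTGGCGC letters that E2F factors bind were found in the window of 6 of 47 cell cycle genes (12.8%), against 0.459% of all genes. Mcm6, shown with the match in capitals because it lay below all controls, has its window at chr13:42404353-42404602 on the minus strand.
Mcm6: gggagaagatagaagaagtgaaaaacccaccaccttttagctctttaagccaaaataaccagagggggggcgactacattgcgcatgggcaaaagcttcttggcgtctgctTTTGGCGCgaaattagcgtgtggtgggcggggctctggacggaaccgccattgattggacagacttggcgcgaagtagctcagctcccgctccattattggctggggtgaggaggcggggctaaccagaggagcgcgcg
The CCAATCA letters of the CCAAT box stood in 17 of the 47 (36.2%) and in 8 of 16 cholesterol genes (50%), against 7.04% of all genes. In all, 16 spellings were searched on both strands in these lists and in the immediate early, cholesterol and fatty acid lists. The others were the E2F spelling TTTCCCGC, a variant with TTTGGCGG, another with TTTCCCGG, the cyclic AMP element TGACGTCA together with its core (its first 6 letters), the sterol element TCACNCCAC, the E-box, the NF-kappaB site, the direct repeat of AGGTCA with 1 base between, and 4 overlapping forms of the serum response element. The cyclic AMP core stood in 7 of 22 immediate early genes (31.8%), against 7.68% of all genes. Each serum response form stood in at most 1 of these 22. The sterol element stood in 0 of 16 cholesterol genes and in 1.09% of all genes. Among cell cycle genes TTTCCCGC stood in 6.38%, TTTCCCGG in 4.26% and TTTGGCGG in 2.13%. Their shares of all genes were 0.903%, 1.34% and 0.444%. The direct repeat, which PPAR-alpha binds, stood in 0 of 32 fatty acid genes and in 0.0583% of all genes. These matches describe the windows and show no binding in these livers.

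On the hepatocyte side, fat and cholesterol genes tended to be higher, by small amounts. Of 38 PPAR-alpha targets and fatty acid oxidation genes, 32 had a higher mean in CUMS 1–3, and their median was 0.18 on the log2 scale, or 0.10 without control 3. At an unadjusted p under 0.05, 8 were higher and 0 lower, against 2.39% and 4.62% of all genes. In 8 the stressed rats lay above all controls, against 4.77% of all genes. Decr1, a reductase for unsaturated fatty acids in mitochondria, read 11822, 8436 and 9466 in the controls and 12964, 14111 and 13527 in CUMS 1–3, a log2 fold change of 0.46 ± 0.13 (SE; limma, adjusted p = 0.731). Cyp4a3, an omega-hydroxylase, read 5355, 5041 and 5572 against 6544, 6755 and 8366, and Acaa2, the mitochondrial thiolase, 7076, 4814 and 6335 against 7949, 8941 and 8310. Hadhb, the thiolase subunit of the trifunctional protein, read 7033, 6189 and 5828 against 7428, 7941 and 8732. In contrast Cpt1a, the gate of mitochondrial fatty acid entry, read 11088, 5247 and 4337 against 4880, 7400 and 9099, and Pdk4 and Angptl4, further targets that fasting raises, stood at −0.51 and −0.19. Fabp1, the abundant fatty acid carrier, stood at 0.00.

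Mttp, the transfer protein that loads lipid onto apolipoprotein B (1395041_at), separated the groups with little spread in either. It read 5573, 5874 and 5958 in the controls and 8305, 8856 and 8354 in CUMS 1–3. Its log2 fold change was 0.55 ± 0.10 (SE; limma, adjusted p = 0.407), it was 0.57 without control 3, and it stayed between 0.52 and 0.57 when each rat was left out. Apob itself read 35449, 31832 and 31565 against 32604, 31960 and 31142, and the 24 genes of lipoprotein assembly had 12 higher and 12 lower members with a median of −0.01. Lpl, the lipase that hepatocytes barely make in adult life, read 224, 438 and 2406 against 188, 58.6 and 159, with control 3 far above the rest.

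All 20 cholesterol synthesis and uptake genes had a higher mean, with a median of 0.33, but CUMS 2 carried much of it, since the median without that rat was 0.12. Nsdhl, a sterol dehydrogenase, was less dependent on it, at 6129, 6159 and 5576 in the controls and 6967, 7343 and 6531 in CUMS 1–3. Sqle, which opens the sterol branch, read 871, 1203 and 1378 against 1367, 2712 and 1089. Lipogenesis and glycolysis genes had a median of 0.24 that was −0.06 without control 3, and 15 of 21 were higher. Fads2, a fatty acid desaturase, read 3583, 4739 and 2531 against 5597, 4635 and 5524, with overlap. Of 48 respiratory chain subunits 46 were higher but by very little, with a median of 0.10, and 0.02 without control 3. An unadjusted p under 0.05 was reached by 0 subunits in either direction.

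Among phase I enzymes that the study's table does not list, 12 of 44 were higher at an unadjusted p under 0.05 and 1, Cyp3a9, was lower, against 2.39% and 4.62% of all genes. The median was 0.15, and 0.07 without control 3. The carboxylesterase Ces1e read 2351, 2262 and 2104 in the controls and 2928, 3344 and 2512 in CUMS 1–3, a log2 fold change of 0.38 ± 0.12 (SE; limma, adjusted p = 0.791). Cyp4f6, which hydroxylates fatty acids and leukotrienes, read 1886, 1750 and 1722 against 2145, 2306 and 2142, a tight separation of small size. Por, the reductase that gives electrons to every microsomal cytochrome P450, read 2570, 2101 and 1166 against 2611, 3416 and 2317, and its log2 fold change of 0.57 was 0.24 without control 3. Cyp3a9 read 3451, 3642 and 3210 against 1605, 1488 and 4071, where CUMS 3 lay above all controls. The phase II list had a median of 0.09, with Sult2a6, a sulfotransferase of bile acids and steroids, at 7254, 5781 and 9675 against 9377, 14269 and 12801.

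Several transporters of bile acids lay above all controls in CUMS 1–3. Slco1a1, an uptake transporter of bile acids, steroids and drugs (1387567_at), read 4514, 4534 and 4079 in the controls and 6167, 6572 and 5441 in CUMS 1–3, a log2 fold change of 0.47 ± 0.10 (SE; limma, adjusted p = 0.628). Abcb11, the bile salt export pump, read 4934, 5293 and 4801 against 6027, 6548 and 5959. Slc10a1, the sodium-dependent uptake transporter, read 21517, 18577 and 18386 against 22738, 25797 and 22086. All 3 were without overlap. Cyp7a1, the rate-limiting enzyme of bile acid synthesis, read 9581, 13097 and 4835 against 7263, 7562 and 5417, and Cyp8b1 5503, 3523 and 3514 against 3674, 3297 and 3599, both with overlap, and the exporters Abcc2 and Abcc3 stood at −0.09 and −1.01. The 27 genes of the list had 18 higher and 9 lower members and a median of 0.09, which was 0.00 without control 3.

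Targets of the glucocorticoid receptor did not move as a list, with 16 of 29 higher, 13 lower and a median of 0.03. Among them Mt1, a metallothionein that binds zinc and copper (1388267_a_at), read 538, 531 and 452 in the controls and 153, 241 and 346 in CUMS 1–3, a log2 fold change of −1.11 ± 0.31 (SE; limma, adjusted p = 0.714). Mt2A, the paralogue, read 19497, 18872 and 12027 against 2730, 3741 and 19188, so CUMS 3 lay among the controls. The probes of these near-identical genes may share transcripts. Sgk1, a kinase that glucocorticoids and serum induce, read 1571, 1421 and 2031 against 1284, 1113 and 1031. Fkbp4, a co-chaperone of the receptor, read 1250, 1408 and 1139 against 1784, 1526 and 1636, while Fkbp5, a classical target, read 467, 611 and 399 against 451, 472 and 986. Tsc22d3, another classical target known as GILZ, read 2571, 3050 and 2338 against 2729, 4422 and 3014. NRF2 targets, at 0.02, and the heat shock and unfolded protein response, at 0.02, likewise had medians near 0.

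Of 40 acute phase and complement genes 32 were lower, but the median was only −0.08. Hamp, the iron hormone hepcidin (1387396_at), read 401, 5768 and 2214 in the controls and 307, 146 and 369 in CUMS 1–3. The controls alone ran from 401 to 5768, and the log2 fold change of −2.76 had a standard error of 0.94 (limma adjusted p = 0.819). Hjv, the co-receptor that drives hepcidin, read 2946, 2823 and 3335 in the controls against 4199, 4131 and 3716, so that all stressed rats lay above them. C1r, a protease of the classical complement pathway, read 14041, 13942 and 12934 against 9613, 11349 and 11715, and Masp1, of the lectin pathway, 2520, 2761 and 2790 against 1989, 1697 and 2390. The fibrinogen chains Fga, Fgb and Fgg, at −0.10, −0.05 and −0.09, and Crp, at −0.11, differed by less than the spread between rats.

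Other lists gave isolated members. Igfbp7, a matrix-associated binding protein of the IGF axis (1371357_at), read 2934, 2840 and 5430 in the controls and 1902, 1702 and 1968 in CUMS 1–3, and its log2 fold change of −0.94 ± 0.22 (SE) was −0.64 without control 3. Bhlhe41, a repressor of the circadian clock, read 323, 117 and 419 against 91.4, 113 and 28.7, with CUMS 2 only just below control 2, while the 19 clock genes had a median of 0.13 that was −0.03 without control 3. Glud1, the glutamate dehydrogenase that releases ammonia, read 16508, 14262 and 13289 against 20036, 18421 and 17675, and 35 of 47 genes of amino acid catabolism were higher with a median of 0.08, which was −0.08 without control 3. Among 12 genes of B and plasma cells, Blk and Fcrla joined Cxcr5 above all controls at dim signals, with Blk at 6.86, 18.7 and 12.8 against 35.9, 59.2 and 55.7. Jchain, of antibody-secreting cells, lay below all controls, at 1539, 1585 and 1407 against 1154, 1140 and 908, and the pan-B-cell genes Ms4a1 and Cd79b stood at 0.13 and 0.31 with overlap. The rest of the 12 overlapped too. Mzb1, Tnfrsf17 and Cd37 stood at −0.35, −0.28 and −0.39, Cd22 and Pou2af1 at −0.06 and −0.05, and Cr2 at 0.95. Lists of coagulation, iron and heme, erythroid and platelet, and ribosomal protein genes had medians of −0.03, 0.00, 0.03 and −0.05.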

How the data were processed

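The authors hybridised liver RNA of 9 GK rats, 1 array per rat, to Affymetrix rat arrays and normalized the scans with MAS 5.0, also named in the submitters' processing notes. The deposited values were linear signal intensities, scaled to a trimmed mean of 500.2 per array. Of 31099 probe sets, 57 array controls were left out and 31042 kept. Signals below 1 (393 on the 6 arrays compared) were set to 1 before taking log2. A platform table gave 1 gene symbol to 20826 probe sets, several to 436 and none to 9780.

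The control, CUMS 1–3 and CUMS 4–6 groups, taken from the symptom labels, were fitted together in limma 3.58.1 (R 4.3.3; lmFit and eBayes with a variance trend; 6 residual degrees of freedom), and CUMS 1–3 was compared with control, with Benjamini-Hochberg adjustment over all probe sets and a threshold of 0.05. The study named ANOVA. The fit was tested on simulated data. Figures were drawn with matplotlib 3.10.9. No scan batch was given in the sources used here, and the number of arrays limits the precision.

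Named genes were the 12 higher and 12 lower genes of smallest p that met a rule. The rule asked for 1 symbol, a specific probe set, no overlap and a fold of at least 1.5. It also asked for a mean log2 signal of at least 8 in whichever group was higher, and left out genes the study names. From the lists, the 3 genes of smallest p in each were also drawn on. Not all of them are described, and for some lists none is. Other list members were chosen after their values were seen, to show roles and exceptions. The lists and their members were chosen with earlier results of these data known. A list gene was read from its probe set of highest mean signal, Table probe sets of the study left out. Replicate numbers were not treated as pairs: rats of the same number had deviations correlated at 0.025, −0.071 and 0.226. Promoter windows came from RefSeq (GRCr8), taking 250 bases before each start, with 16 spellings searched in 5 lists.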

Additional observations from a re-analysis of the deposited data

How the results depend on the processing

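Of the 24 genes named by rule and the leading genes of the lists, none passed an adjusted p under 0.05 under any alternative run. Every one kept its direction under the alternatives that leave out no rat. Several of these runs use the same group means: those on the 6 arrays alone, without the variance trend and with the block. The same holds for the ANOVA and for the upper 60% of probe sets. A gene's fold change could not differ in these runs, so a kept direction there shows nothing. Where the groups do not overlap, as the rule for the 24 requires, leaving out a rat cannot turn a direction. Without a trend of the variance limma called 1 higher probe set and 1 lower (log2 fold changes 2.93 and −2.64, adjusted p = 0.0233 for both, neither named), and the methods' ANOVA called 1 lower, of Tmem123 (−0.47, adjusted p = 0.0016), where 793 higher and 740 lower ones had an unadjusted p under 0.05. With the replicate number as a block on the 6 arrays, 0 were called, and 802 higher and 1132 lower had an unadjusted p under 0.05. In the upper 60% of probe sets by signal, 482 higher ones had an unadjusted p under 0.05. There the B and plasma cell median was −0.28, with dim members such as Blk left out. The counts without overlap at a fold of 1.5 were 193 higher and 431 lower. With 50 added to the signal these were 192 higher and 405 lower, since 50 compresses dim signals. Leaving out 1 rat gave 1416 to 1658 higher and 1392 to 2029 lower, and among bright ones 89 to 128 higher and 201 to 463 lower, since overlap is rarer with fewer rats. The bright counts were added after the data were seen. Median centring gave medians of −0.03 for acute phase and 0.04 for apolipoprotein genes. Leaving out 1 rat gave ranges of −0.16 to −0.03 for acute phase, −0.06 to 0.04 for apolipoprotein, 0.00 to 0.13 for bile acid, −0.04 to 0.04 for NRF2 and −0.72 to −0.28 for MHC class II genes. The cause of these shifts was not tested. Of 442 list medians under the alternatives 431 moved by less than the spread between rats. Runs that only change the error model could not move a list median, so this count says little about stability. Without control 3 the stellate, cell cycle and actin medians moved toward 0, as given above. Dim probe sets limit the precision: their median standard error was 0.81 below a log2 signal of 6.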
